A study of Mus musculus with 3 samples.

Results

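Retinoid metabolism genes set how much retinoic acid a cell makes, degrades and senses. The 9 genes described here, Cyp26b1, Cyp26a1, Dhrs3, Rbp4, Rbp7, Aldh1a1, Aldh1a2, Rarb and Stra6, were taken by symbol from the 30360 genes counted, and each symbol matched 1 gene. They were chosen with results of these data in view, because Dhrs3 was lower in fibroblasts and Cyp26b1 lower in endothelial cells of the HFpEF-scr library than of Control. Those differences, and every other difference between HFpEF-scr and Control below, are therefore given as descriptions. Single-cell RNA was counted in mouse left ventricle (strain written "C56Bl6" in the labels) in 3 libraries, 1 per group, each from 4 pooled samples. Control mice had a standard diet for 10 weeks, and no vector is named for them. HFpEF-scr mice had a High-Fat diet with L-NAME, an inhibitor of nitric oxide synthesis, for 6 weeks and an adeno-associated virus (AAV) carrying a scrambled short hairpin for 4 weeks. HFpEF-FoxO1-sh mice had the same diet and an AAV hairpin against FoxO1, for the same times. HFpEF stands for heart failure with preserved ejection fraction, which the diet models. Diet and vector differ together between Control and HFpEF-scr and cannot be told apart, and which cells the vector enters is not given in the labels. Cardiomyocytes were held back by a 70 µm strainer.

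Retinol circulates bound to Rbp4 and enters cells through receptors such as Stra6. Inside the cell it is held by retinol-binding proteins, stored as esters by Lrat, or oxidised to retinaldehyde and then, by the Aldh1a enzymes, to retinoic acid. Retinoic acid binds receptors of the Rar family on DNA, and Cyp26 enzymes break it down. Dhrs3 works against the pathway by turning retinaldehyde back into retinol. Cyp26a1, Cyp26b1, Dhrs3, Rarb and Stra6 are themselves known to be induced by retinoic acid, while Aldh1a2 is known in the heart as an enzyme of the epicardium.

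Known binding sites of retinoic acid receptors are often direct repeats of a 6-base half-site separated by 5 bases. The windows before 4 start sites are printed here because their genes clear retinoic acid or its precursor, or sense it, and all 4 are known retinoic acid targets. Each is the 250 bases before a start site of the RefSeq annotation on GRCm38.p6 (the mm10 build), 5′ to 3′ on the gene's strand, with repeats of the half-sites in capitals:
Rarb (chr14:16575477-16575726, minus strand): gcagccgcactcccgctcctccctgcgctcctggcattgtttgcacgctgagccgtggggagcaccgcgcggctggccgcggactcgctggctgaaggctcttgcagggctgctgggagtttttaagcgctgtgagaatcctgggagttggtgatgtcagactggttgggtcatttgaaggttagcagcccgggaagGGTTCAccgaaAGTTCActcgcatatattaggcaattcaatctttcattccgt
Cyp26a1 (chr19:37697558-37697807, plus strand): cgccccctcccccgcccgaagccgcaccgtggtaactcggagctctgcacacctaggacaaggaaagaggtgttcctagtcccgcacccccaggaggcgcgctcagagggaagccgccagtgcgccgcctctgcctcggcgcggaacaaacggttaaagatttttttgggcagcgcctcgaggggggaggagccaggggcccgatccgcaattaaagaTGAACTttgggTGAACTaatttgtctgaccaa
Cyp26b1 (chr6:84593811-84594060, minus strand): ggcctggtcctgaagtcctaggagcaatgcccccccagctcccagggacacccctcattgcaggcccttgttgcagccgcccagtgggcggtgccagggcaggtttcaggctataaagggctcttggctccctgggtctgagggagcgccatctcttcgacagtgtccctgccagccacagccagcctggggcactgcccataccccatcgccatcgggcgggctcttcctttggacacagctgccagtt
Dhrs3 (chr4:144892577-144892826, plus strand): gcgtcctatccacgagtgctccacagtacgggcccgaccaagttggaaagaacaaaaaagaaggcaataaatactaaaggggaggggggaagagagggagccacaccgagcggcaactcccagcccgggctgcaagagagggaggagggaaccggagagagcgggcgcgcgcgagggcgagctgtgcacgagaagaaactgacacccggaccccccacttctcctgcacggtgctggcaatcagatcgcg

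The search used AGGTCA or AGTTCA or GGGTCA or GGTTCA, any of them repeated in the same direction at a spacing of 5, on both strands and with overlaps allowed. It covered windows that run on for 50 bases past the start. The Rarb match, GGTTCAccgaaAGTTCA, lies on the gene's strand with its first base 53 bases before the start, and is the textbook retinoic acid response element of this gene. The Cyp26a1 match reads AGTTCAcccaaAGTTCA on the opposite strand, at 32 bases before the start. Of the 16 windows that RefSeq gives for the 9 genes, these were the 2 with a match. The repeat occurs in 0.0974% of 32851 mouse promoter windows of this length. A match is only a match of letters, and the 3′ UMIs counted here do not tell which start site a transcript used.

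After filters, 12757 cells of Control, 14567 of HFpEF-scr and 16854 of HFpEF-FoxO1-sh were kept, with a median of 6889, 6520 and 6607 UMIs (unique molecular identifiers, each counted as 1 RNA molecule) per cell. The libraries stood apart in cell quality: 56.9%, 53.8% and 31.2% of barcodes had over 20% mitochondrial UMIs and were left out. Each pair of libraries shared between 238 and 335 cell barcodes. Cells fell into 36 clusters, and 34 of these were named from marker genes, as fibroblast-like, endothelial-like and so on; the suffix is left out below. Fibroblasts, in 11 clusters, made up 8301, 9097 and 10416 cells, and endothelial cells 450, 652 and 539. Foxo1 over all kept cells was at 61.1 (59.5 to 62.7), 56.2 (54.7 to 57.6) and 59.7 (58.3 to 61.1) CPM (Control, then HFpEF-scr, then the FoxO1 hairpin library), so the targeted RNA was not lower than in HFpEF-scr in the library labelled HFpEF-FoxO1-sh. CPM here scales a gene's UMIs to 1e6 UMIs summed over the cells of a class. Ranges in parentheses are exact 95% intervals for counting error, with Poisson intervals for CPM, Clopper-Pearson intervals for shares of cells and conditional binomial intervals for ratios. Each group is 1 library, so there is no replicate and no test, and no difference could be set against a spread between animals. Values below are in the order Control, HFpEF-scr, HFpEF-FoxO1-sh, and the last comparison shares the HFpEF-scr library with the first.

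Most of the 9 genes were concentrated in 1 or 2 cell classes. Over all kept cells, fibroblasts held 96.9% of Cyp26a1 UMIs, 87.3% of Aldh1a1, 83.1% of Rbp4, 79.4% of Aldh1a2 and 69.1% of Rarb. Fibroblasts were themselves 65.1%, 62.4% and 61.8% of the kept cells, so the Rarb share lay near their share of cells. Endothelial cells held 78.0% of Rbp7, and endothelial and endocardial cells 42.6% and 41.7% of Cyp26b1. Stra6 was the rarest, with 378 UMIs in all, 50.8% of them in endocardial cells. Of 27997 Dhrs3 UMIs, 46.1% lay in fibroblasts, below their share of cells, and 30% in macrophages. Platelet and erythroid classes are not read for these genes, because they carried the fibroblast collagen-binding gene Dcn at 16873, 16221 and 17032 and at 12628, 12701 and 11434 CPM, beside 16706, 16639.8 and 16627 CPM in fibroblasts.

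**Figure D1:**
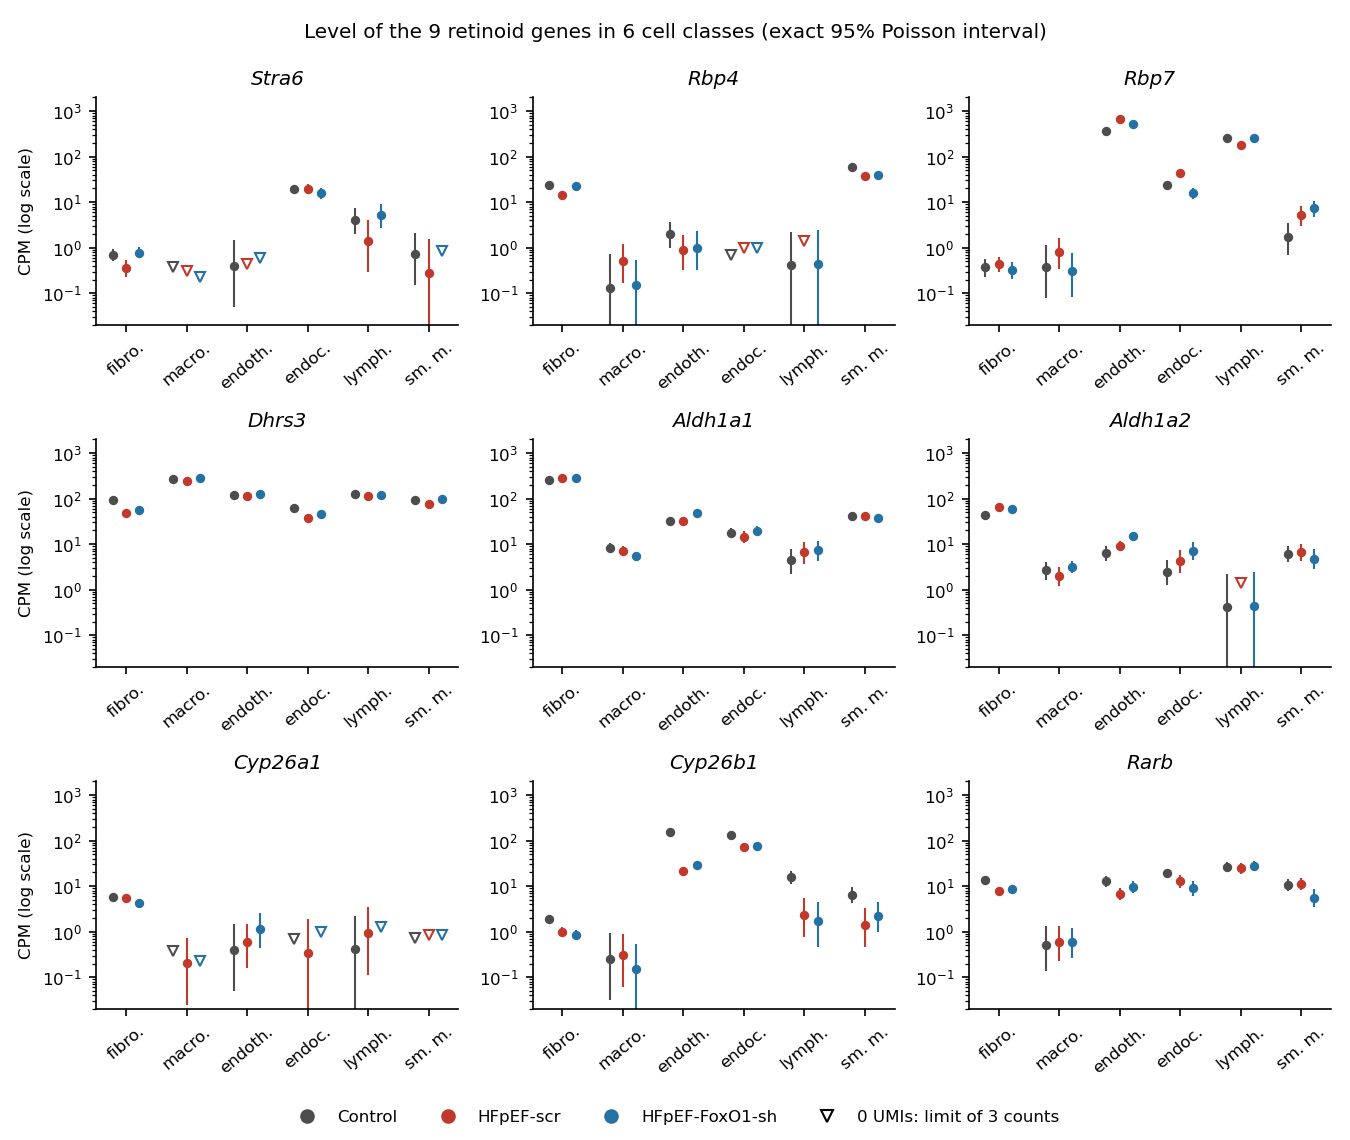
CPM of each of the 9 genes (log axis) in 6 cell classes and 3 libraries, with exact Poisson 95% bars; a triangle marks a class with 0 UMIs and stands at the limit of 3 counts. Dhrs3 is highest in macrophages in each library (249 to 291 CPM), Rbp7 in endothelial cells (369 to 661 CPM) and Cyp26a1 in fibroblasts (4.34 to 5.82 CPM).

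A gene was called in a comparison when its CPM differed at least 1.5-fold either way with an interval excluding 1, among genes with at least 20 UMIs over both libraries. In fibroblasts all 9 genes were measured: Aldh1a2 was called higher in HFpEF-scr than in Control, and Dhrs3, Rbp4, Rarb, Cyp26b1 and Stra6 lower, beside 1.73% of 14787 genes called higher and 1.94% lower. In endothelial cells Rbp7 was called higher and Cyp26b1 and Rarb lower of 6 measured, beside 1.79% and 3.22% of 11845 genes. In endocardial cells Rbp7 was higher and Cyp26b1 and Dhrs3 lower of 7 measured, beside 2.78% and 2.22%. Nothing is read from these counts, because the genes were chosen on this comparison. In macrophages 0 of 3 measured genes were called, beside 2.06% higher and 1.96% lower. Smooth muscle cells had 1 gene higher (Rbp7) and 2 lower (Cyp26b1 and Rbp4) of 7, beside 2.39% and 2.64%, and lymphatic endothelial cells 0 higher and 1 lower (Cyp26b1) of 5, beside 1.79% and 2.47%. The smooth muscle Cyp26b1 call rests on few cells: its 27 Control UMIs lay in 4 cells, 24 of them in 1 cell.

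In HFpEF-FoxO1-sh against HFpEF-scr, Rbp4 and Stra6 were higher in fibroblasts and 0 of 9 lower, beside 1.72% of 14931 genes higher and 1.81% lower. In endothelial cells Aldh1a2 was higher and 0 of 6 lower, beside 4.11% and 1.17%. In endocardial cells 0 of 7 were higher and Rbp7 was lower, beside 3.4% and 1.69%. In smooth muscle 0 of 6 were higher and Rarb was lower, beside 1.97% and 3.36%. In macrophages 0 of 3 were called, beside 1.73% and 2.01%, and in lymphatic endothelial cells 0 of 4, beside 2.75% and 1.91%.

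**Figure D2:**
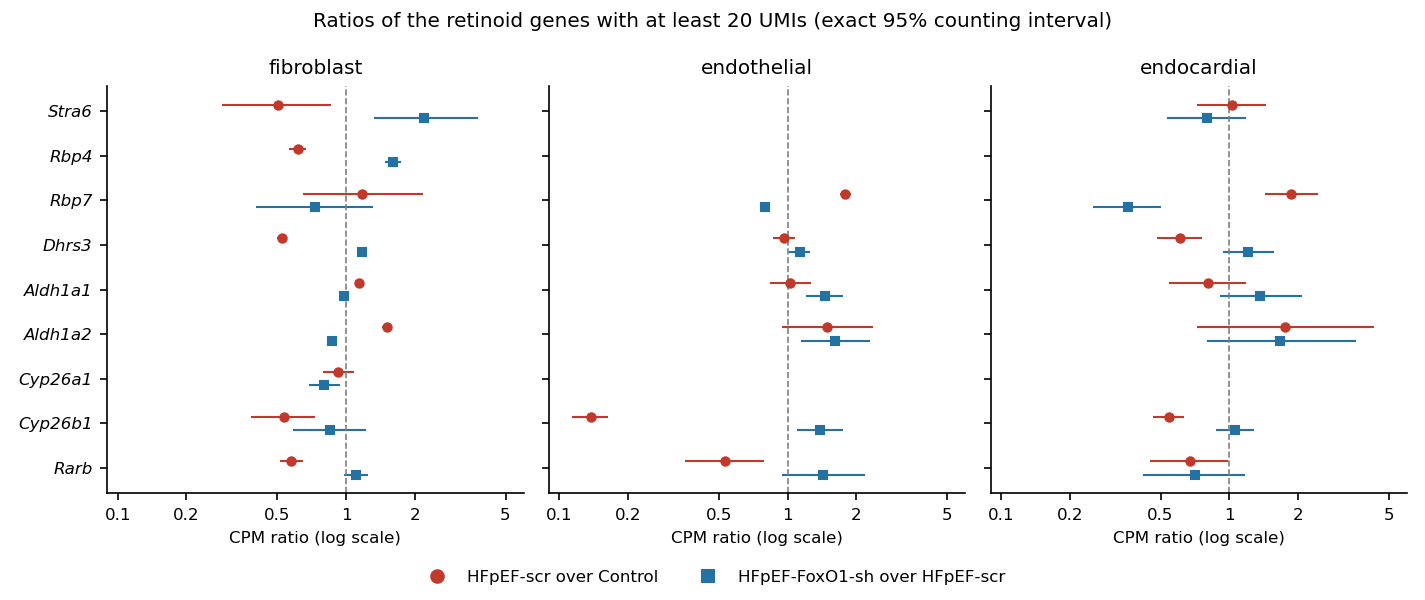
CPM ratio (log axis, conditional binomial 95% bars) of each gene with at least 20 UMIs over both libraries in fibroblasts, endothelial and endocardial cells, for HFpEF-scr over Control and HFpEF-FoxO1-sh over HFpEF-scr. The lowest point is Cyp26b1 in endothelial cells, HFpEF-scr over Control (0.137), while its ratio in the same cells between the HFpEF libraries is 1.38.

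Among the carriers, Rbp4 (mm10 chr19:38116629-38125281, minus strand), the protein that carries retinol in blood, was counted mainly in fibroblasts and in part of the smooth muscle cells. In fibroblasts it stood at 23.6 (22.4 to 24.8), 14.5 (13.5 to 15.5) and 23.2 (22.1 to 24.3) CPM. HFpEF-scr was thus the low library, at a ratio of 0.614 (0.564 to 0.668) to Control, and HFpEF-FoxO1-sh stood 1.60-fold (1.48 to 1.74) above HFpEF-scr. The fibroblast clusters were not alike: 9 of 10 with enough UMIs were lower in HFpEF-scr (7 with intervals below 1), while the cluster led by Wif1 was 1.46-fold higher. Between the HFpEF libraries 9 of 10 clusters were higher in HFpEF-FoxO1-sh, 8 with intervals above 1 and up to 2.99-fold.

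The richest fibroblasts for Rbp4 were the cluster led by Inmt and Igfbp3, at 83.4, 70.4 and 86.3 CPM. That cluster held 1607, 1088 and 1211 cells, so its share of fibroblasts moved with the libraries. With clusters weighted as in Control the HFpEF-scr ratio was 0.784 in place of 0.614. In smooth muscle Rbp4 stood at 60.5 (53.3 to 68.4), 36.9 (30.9 to 43.9) and 38.7 (32.5 to 45.7) CPM, with Control above both HFpEF libraries and those overlapping each other. With at most 10% mitochondrial UMIs the ratio of HFpEF-scr to Control, 0.611, became 0.329 and that between the HFpEF libraries, 1.05, became 3.03. Nearly all of it lay in the cluster led by Sost and Acta2 (111, 69.5 and 73.7 CPM) and little in the cluster led by Myh11 and Sorbs2 (2.57, 0.602 and 1.74 CPM). Endocardial cells had 0 Rbp4 UMIs in each library, which allows up to 0.677, 1.00 and 0.983 CPM.

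Stra6 (chr9:58063788-58153996, plus strand), the membrane receptor that takes up retinol from Rbp4, was an endocardial gene here. Its endocardial level was 19.2 (15.3 to 23.7), 19.7 (15 to 25.4) and 15.7 (11.6 to 20.9) CPM, with overlapping intervals. UMIs were found in 7.33%, 8.70% and 9.28% of endocardial cells and in 0 macrophages, whose median depths were 6628, 5902 and 6232 UMIs against 5934.5, 5499.5 and 6084 in endocardial cells. Zero macrophage UMIs allow up to 0.383, 0.304 and 0.228 CPM. In fibroblasts Stra6 rested on 42, 22 and 59 UMIs, or 0.707, 0.356 and 0.785 CPM. Even so few UMIs were uneven among fibroblasts, with 21, 9 and 24 of them in the Wif1-led cluster, at 3.44, 1.5 and 4.36 CPM. Over the libraries that cluster, 7.49% of fibroblasts, held 43.9% of them. The cluster led by Cilp and Cst6, 3.74% of fibroblasts, held 23.6%. The fibroblast ratio of HFpEF-scr to Control, 0.504 (0.287 to 0.864), ran from 0.228 to 0.651 over the alternatives. The ratio of HFpEF-FoxO1-sh to HFpEF-scr was 2.20 (1.33 to 3.78) and ran from 1.18, with each cell classed singly and so short of the call, to 3.49. Stra6 overlaps Ccdc33 on the opposite strand and Gm16131 on its own, and how such reads were assigned is not given in the sources used here.

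Rbp7 (chr4:149449687-149454978, minus strand) binds retinol inside the cell and is known in endothelium and fat. In endothelial cells it stood at 369 (352 to 387), 661 (642 to 681) and 526 (507 to 547) CPM, with UMIs in 64.9%, 77.8% and 64.0% of cells. Fibroblasts had it in 0.265%, 0.297% and 0.221% of cells, at median depths of 6816, 6501 and 6859.5 UMIs against 10345, 9405 and 9156. HFpEF-scr was the highest library and HFpEF-FoxO1-sh lay between it and Control, 0.796-fold (0.759 to 0.835) of HFpEF-scr. With at most 10% mitochondrial UMIs that ratio became 0.417, and the ratio of HFpEF-scr to Control, 1.79 (1.70 to 1.89), became 3.08. Summed endothelial markers had the same order of libraries in this class, at 28170.0, 38285 and 32758 CPM, and their part in the Rbp7 values was not tested. Both endothelial clusters had the same order, the one led by Fabp4 and Gpihbp1 at 345, 641 and 492 CPM and the one led by Rgs5 and Sox17 at 436, 731 and 617 CPM.

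Rbp7 did not follow that order in lymphatic endothelium. There it stood at 259, 182 and 252 CPM, lowest in HFpEF-scr, with a ratio of 0.704 (0.619 to 0.80) to Control and 1.38 (1.21 to 1.57) between the HFpEF libraries, both short of the 1.5-fold call. Endocardial cells had less, at 23.5, 43.8 and 15.7 CPM from 35, 43 and 21 positive cells, and HFpEF-FoxO1-sh was 0.359-fold (0.252 to 0.504) of HFpEF-scr. Both calls moved with the processing: the ratio of HFpEF-scr to Control, 1.86 (1.43 to 2.44), ran from 1.04 to 7.43 over the alternatives. The ratio between the HFpEF libraries ran from 0.342 to 0.953, the highest with each cell classed singly, and passed the fold in 4 of 9. Smooth muscle had 7, 18 and 26 UMIs in 3, 5 and 6 cells, so its call rests on few cells, and its ratio of HFpEF-scr to Control, 3.04, ran from 1.37 to 4.52 over the alternatives.

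Dhrs3 (chr4:144892827-144928209, plus strand), the reductase that turns retinaldehyde back to retinol, had its highest level in macrophages. It stood there at 271 (259 to 283), 249 (239 to 259) and 291 (282 to 300) CPM, with UMIs in 76.8%, 72.1% and 75.7% of cells. T cells, at median depths of 4915, 4549 and 4139 UMIs, had it in 8.87%, 2.13% and 0% of cells, where 0 of 203 cells allows up to 1.48%. The T cell class carried the fibroblast gene Dcn at 4310.5, 1874 and 182 CPM, and its part in these shares was not tested. Macrophages were followed by endothelial cells (119, 115 and 129 CPM) and lymphatic endothelium (129, 114 and 118 CPM), whose ranges overlap, and then by smooth muscle (92.9, 78.2 and 96.8 CPM). In none of these 4 classes did Dhrs3 pass the 1.5-fold call in either comparison.

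In fibroblasts the gene had another pattern. Dhrs3 stood at 93.5 (91.0 to 96.0), 48.9 (47.2 to 50.7) and 57.6 (55.9 to 59.4) CPM, from 5557, 3019 and 4329 UMIs, and 39.8%, 24.9% and 29.2% of cells had it. Control was above both HFpEF libraries, and HFpEF-FoxO1-sh was 1.18-fold (1.12 to 1.24) above HFpEF-scr, which is short of the call. With each cell thinned to 1000 UMIs, the shares were 8.47%, 4.53% and 5.50%, in the same order. Endocardial Dhrs3 had that order too, at 62.8 (55.6 to 70.6), 38.1 (31.4 to 45.8) and 46.2 (38.9 to 54.5) CPM, the HFpEF intervals overlapping. Among 109, 46 and 92 mesothelial cells, too few for the ratio, it stood at 70.3, 19.9 and 39.1 CPM.

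Within fibroblasts the lower Dhrs3 of HFpEF-scr was found in 11 of 11 clusters, with ratios from 0.421 to 0.741 and 10 intervals below 1. The level itself ranged more widely between clusters than between libraries. It was highest in the Inmt-led cluster, at 182, 97.2 and 115 CPM, and lower in the Wif1-led cluster (126, 53.2 and 67.2 CPM) and the cluster led by Pi16 (39.4, 29.2 and 35.0 CPM). Between the HFpEF libraries 9 of 11 clusters were higher in HFpEF-FoxO1-sh, 6 with intervals above 1, over a range of 0.655 to 1.37. Beside it, summed macrophage markers in fibroblasts, from the class richest in Dhrs3, were at 52.3, 47.8 and 48.7 CPM, and summed fibroblast markers at 59265, 59904 and 59405 CPM. Summed erythroid markers stood at 287, 557 and 257 CPM, with 6 of 8 measured called higher in HFpEF-scr than in Control, and their part in the fibroblast values was not tested.

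**Figure D3:**
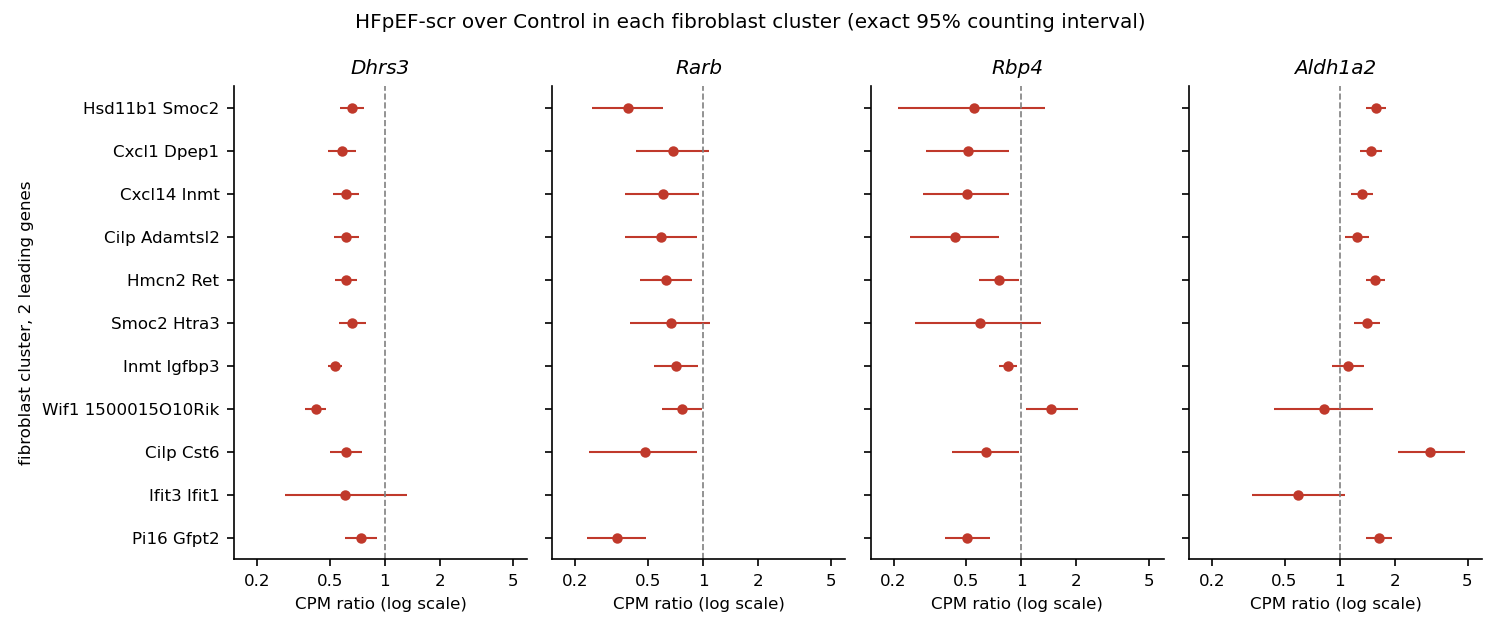
CPM ratio of HFpEF-scr over Control (log axis, conditional binomial 95% bars) for Dhrs3, Rarb, Rbp4 and Aldh1a2 in each of 11 fibroblast clusters, named by their leading genes; a cluster with too few UMIs for a gene has no point. Dhrs3 lies below 1 in 11 of 11 clusters, Rarb in 10 of 10, Rbp4 in 9 of 10, and Aldh1a2 above 1 in 9 of 11.

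The synthesis enzymes of fibroblasts were not lower in HFpEF-scr than in Control. Aldh1a1 (chr19:20492715-20643465, plus strand), which oxidises retinaldehyde to retinoic acid, was found in 69.9%, 71.6% and 71.9% of fibroblasts, at 252 (248 to 256), 287 (283 to 292) and 281 (277 to 285) CPM. The Control level was the lowest, and HFpEF-scr was 1.14-fold (1.11 to 1.16) above it, higher in 11 of 11 clusters but well short of the call. Schwann cells had the highest Aldh1a1 of all classes (561, 547 and 712 CPM), followed by the few mesothelial cells (289, 373 and 342 CPM), and macrophages had little (8.17, 7.18 and 5.40 CPM). Among fibroblasts it was lowest in the Pi16-led cluster, at 85.6, 95.5 and 98.5 CPM. Aldh1a1 overlaps C730002L08Rik on the opposite strand.

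Aldh1a2 (chr9:71215789-71296243, plus strand), the other retinaldehyde oxidase of the list, was called higher in HFpEF-scr fibroblasts. It stood at 43.8 (42.2 to 45.6), 66.3 (64.3 to 68.4) and 57.8 (56.1 to 59.6) CPM, in 19.1%, 24.9% and 23.6% of cells. HFpEF-scr was the highest library at a ratio of 1.51 (1.44 to 1.59), and HFpEF-FoxO1-sh was 0.872-fold (0.835 to 0.910) of it. The ratio lies at the edge of the call: across the alternatives it ran from 1.40 to 1.52 and passed 1.5-fold in 6 of 11. It was above 1 in 9 of 11 clusters, 8 with intervals above 1, over a wide range of 0.594 to 3.13.

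The clusters with least Aldh1a2 were not those with least Aldh1a1. The Wif1-led cluster had Aldh1a2 at 4.26, 3.49 and 5.08 CPM while its Aldh1a1 stood at 423, 429 and 509 CPM. The mesothelium, the surface layer of the heart, had the highest Aldh1a2, at 376, 318 and 407 CPM in 93.6%, 89.1% and 93.5% of its cells. Endothelial Aldh1a2 was at 6.29, 9.32 and 15 CPM, where its call between the HFpEF libraries, 1.61 (1.14 to 2.29), turned to 0.370 with at most 10% mitochondrial UMIs and to 0.531 with at most 50%. Summed fibroblast markers in that class moved with it in part, at 8988, 6545 and 8790.2 CPM, and their part in the result was not tested.

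Of the clearance enzymes, Cyp26a1 (chr19:37697798-37701536, plus strand) was confined almost wholly to 1 kind of fibroblast. The Wif1-led cluster, with 725, 761 and 596 cells, held 318, 314 and 307 of the 346, 333 and 326 Cyp26a1 UMIs of fibroblasts. Its level there was 52.1, 52.2 and 55.7 CPM, from 128, 112 and 93 positive cells, and so differed little between libraries. Over all fibroblasts the level was 5.82 (5.22 to 6.47), 5.39 (4.83 to 6.00) and 4.34 (3.88 to 4.84) CPM, lowest in HFpEF-FoxO1-sh, where that cluster held 596 of 10416 fibroblasts. With at most 10% mitochondrial UMIs the fibroblast ratio of HFpEF-scr to Control was 0.101 and that between the HFpEF libraries 4.62, so these ratios move with which cells are kept. Smooth muscle had 0 Cyp26a1 UMIs in each library.

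Cyp26b1 (chr6:84571414-84593908, minus strand), the second enzyme that hydroxylates retinoic acid for removal, had its highest levels in the endothelial and endocardial classes. In the endocardial class it lay in a minority of cells, as given below. In endothelial cells it stood at 156 (145 to 168), 21.4 (18.1 to 25.2) and 29.6 (25.1 to 34.8) CPM, from 770, 145 and 152 UMIs. UMIs were found in 29.6% (25.4 to 34.0), 11.3% (9.02 to 14) and 11.9% (9.27 to 14.9) of endothelial cells. In macrophages, which should lack the gene, the shares were 0.182%, 0.198% and 0.10% at the depths given above. Control stood above both HFpEF libraries, at a ratio of 0.137 (0.114 to 0.164) for HFpEF-scr to Control that became 0.366 with at most 10% mitochondrial UMIs. HFpEF-FoxO1-sh was 1.38-fold (1.09 to 1.75) above HFpEF-scr, short of the call.

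Both the number of positive cells and the UMIs in each were higher in Control. At least 10 Cyp26b1 UMIs were found in 23, 0 and 1 endothelial cells, and the highest cell had 53, 9 and 11. The 10 highest cells held 31.8%, 36.6% and 38.2% of the UMIs, and the rest lay in other endothelial cells. Thinned to 1000 UMIs per cell, 10.7%, 1.55% and 1.87% of endothelial cells had the gene. Lymphatic endothelium had 15.9, 2.36 and 1.72 CPM, but 39 Control UMIs lay in 8 cells, 18 of them in 1 cell. Fibroblast Cyp26b1 rested on 112, 62 and 64 UMIs, 52.9% of them in the Wif1-led and 30.3% in the Inmt-led cluster. Within these clusters the ratios of HFpEF-scr to Control were 0.630 and 0.697, 1 with its interval below 1. Over all fibroblasts that ratio, 0.533, became 0.726 with at most 10% mitochondrial UMIs, short of the call.

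The endothelial Cyp26b1 difference was present in both endothelial clusters, and its size depended on the cluster. The Fabp4-led cluster, with 334, 501 and 413 cells, had Cyp26b1 at 136, 26.4 and 31.0 CPM. The cluster led by Rgs5 and Sox17, with 116, 151 and 126 cells, had 215, 4.55 and 26.1 CPM. This second cluster had pericyte as well as endothelial markers (7 and 10) among its leading genes. When cells with up to 50% mitochondrial UMIs were kept and clustered anew, endothelial cells numbered 1862, 1871 and 1187 and had 249 (239 to 258), 31.2 (27.9 to 34.6) and 49.1 (43.8 to 54.8) CPM. In that grouping the Fabp4-led cluster stood at 296, 41.2 and 66.2 CPM, and the cluster led by Sema3g, a gene known in arterial endothelium, at 123, 7.34 and 4.94 CPM. Pericytes led by Kcnj8 had 2.67, 0 and 0.571 CPM.

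Markers of other cell types in the endothelial class moved between libraries as well. Summed macrophage markers were at 631, 170 and 427 CPM (14 of 14 detected; C1qa at 105, 20.9 and 67.3 CPM), with 12 of 13 measured lower in HFpEF-scr. Summed pericyte markers were at 3439, 2948 and 3903 CPM, and endocardial markers at 306, 205 and 284 CPM, with 3 of 12 and 4 of 8 measured markers lower. Macrophages themselves had Cyp26b1 at 0.255, 0.304 and 0.152 CPM and Kcnj8-led pericytes at most 2.67 CPM. The endothelial cells without a UMI of Npr3, Hapln1 or Cytl1, genes of the endocardium and valves, had Cyp26b1 at 155, 21.2 and 29.3 CPM. Such cells were 90.4%, 89.6% and 86.3% of the class, so their level had to lie near that of the whole. A cell without these UMIs may still be endocardial. The part of other cell types in the endothelial Cyp26b1 values was not tested.

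In endocardial cells Cyp26b1 stood at 134 (123 to 145), 72.5 (63.2 to 82.9) and 76.7 (67.2 to 87.1) CPM, with Control highest and the HFpEF intervals overlapping. Positive cells were 12.0%, 8.48% and 12.5%, and the 10 highest held 51.4%, 69.1% and 60.7% of the UMIs, so the gene was concentrated in few endocardial cells. A finer clustering put them in 1 cluster. At resolution 2.0 an unnamed cluster led by Hapln1 and Hamp, with 179, 204 and 141 cells, had Cyp26b1 at 342, 136 and 147 CPM. The rest of the endocardium, led by Npr3, had 5.85, 2.12 and 12.5 CPM in 424, 262 and 241 cells, so that the ratio between the HFpEF libraries, 1.06 in the whole class, was 5.90 there.

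**Figure D4:**
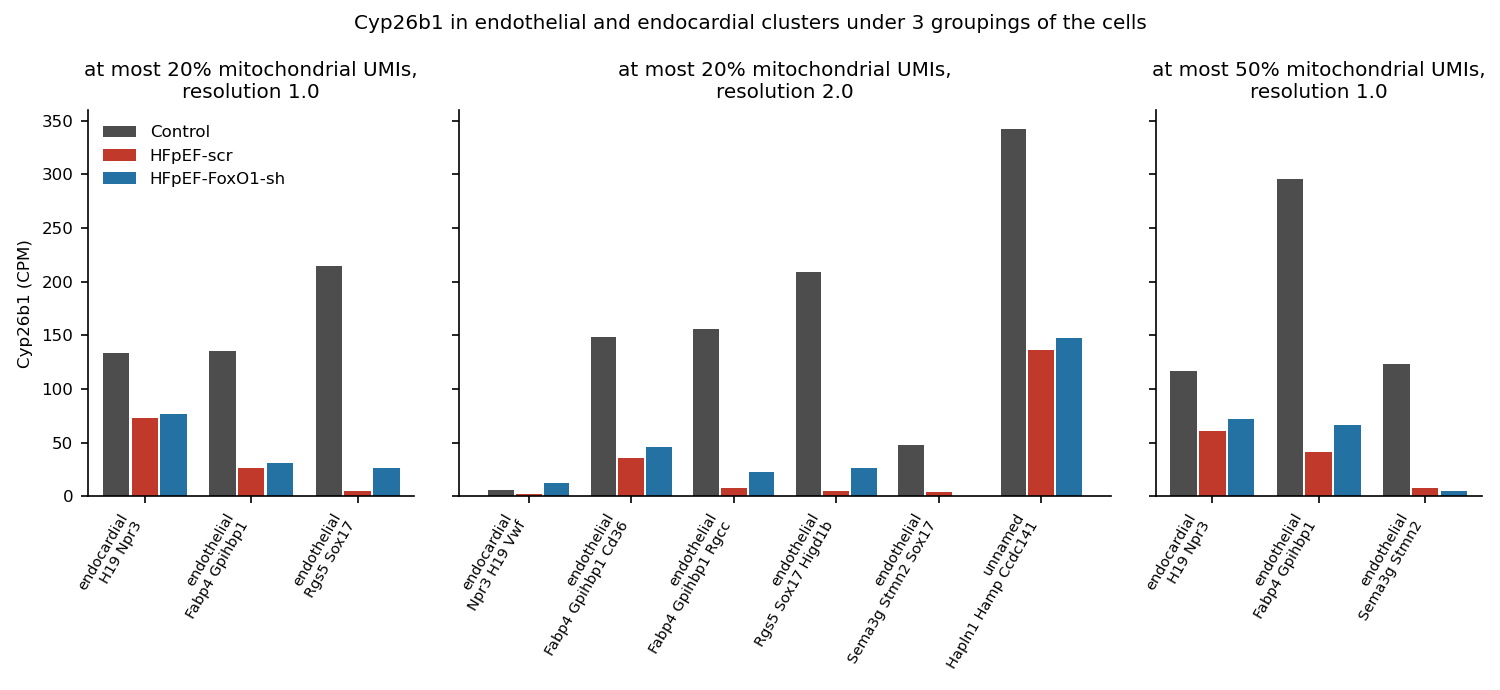
Cyp26b1 CPM (bars from 0, no error drawn) in the endothelial and endocardial clusters of 3 groupings of the cells, each cluster named by its leading genes, with 1 bar per library. Control is the highest library in the Fabp4-led clusters of each grouping (136 CPM against 26.4 and 31.0 in the main one) and in the Hapln1-led cluster at resolution 2.0 (342 against 136 and 147).

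Rarb (chr14:16430839-16819156, minus strand), a retinoic acid receptor whose promoter match is printed above, was low and widely counted. In fibroblasts it stood at 13.5 (12.6 to 14.5), 7.80 (7.12 to 8.53) and 8.62 (7.97 to 9.31) CPM, with UMIs in 8.67%, 4.80% and 5.71% of cells against 0.364%, 0.397% and 0.351% of macrophages. The ratio of HFpEF-scr to Control was 0.577 (0.514 to 0.647), and 10 of 10 clusters with enough UMIs were below 1, 8 with their intervals, over 0.338 to 0.770. HFpEF-FoxO1-sh was 1.11-fold (0.981 to 1.25) of HFpEF-scr, an interval that includes 1. Among fibroblasts Rarb was highest in the Wif1-led cluster, at 23.8, 18.3 and 16.5 CPM, where Cyp26a1 also lay.

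By its median over the libraries Rarb was highest in lymphatic endothelium, at 26.9, 24.6 and 27.5 CPM, nearly level over the libraries. Schwann cells came next, at 18.2 to 29.8 CPM, and both classes stood above fibroblasts. Endothelial Rarb stood at 12.8, 6.80 and 9.75 CPM, a ratio of 0.532 (0.356 to 0.791) to Control and then 1.43 (0.941 to 2.19). Endocardial Rarb fell short of the call at 19.4, 13 and 9.17 CPM, with a ratio of 0.671 (0.448 to 0.991). Smooth muscle had 10.6, 11.4 and 5.64 CPM, where the lower HFpEF-FoxO1-sh value rests on 20 UMIs and its ratio to HFpEF-scr, 0.496 (0.275 to 0.869), turned to 1.05 with at most 10% mitochondrial UMIs. Top2b, which overlaps the 3′ end of Rarb on the opposite strand (chr14:16430839-16435462), had fibroblast ratios of 0.998 and 0.987. Gm48162 also overlaps Rarb on the opposite strand (chr14:16575601-16580459). The part of either gene in the Rarb values was not tested.

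A list of 68 genes of retinoid handling and response holds the 9 genes and 59 others. In fibroblasts 42 of the others were measured between HFpEF-scr and Control. Of these, 0 were called higher and 2 lower, beside 1.73% and 1.94% of all genes. The larger of the differences was that of Lrat, the enzyme that stores retinol as esters, at 6.43, 1.23 and 0.918 CPM from 382, 76 and 69 UMIs in 170, 40 and 44 cells. Its ratio to Control was 0.191 (0.148 to 0.245), and 0.746 between the HFpEF libraries. The other was the receptor gene Rxrg, at 0.656, 0.356 and 0.466 CPM. The whole list had a median log2 ratio of -0.07, beside -0.01 over all genes measured in fibroblasts. Of 21 known retinoic acid targets 17 were measured, and the 4 called lower were Cyp26b1, Dhrs3, Rarb and Stra6. These 4 are all among the 9 genes, which were chosen on this comparison, so nothing is read from their count.

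Between the HFpEF libraries, 3 of the 42 other genes were called higher in HFpEF-FoxO1-sh fibroblasts and 1 lower, beside 1.72% and 1.81% of all genes. The median log2 ratio of the whole list was 0.09 beside 0.04 over all genes. The higher genes were the cellular retinoic acid-binding proteins Crabp1 (0.505, 0.275 and 0.572 CPM) and Crabp2 (0.286, 0.340 and 0.772 CPM) and the homeobox gene Hoxb4 (1.23, 0.907 and 1.57 CPM). Dhrs9, a dehydrogenase that acts on retinol, was lower at 0.202, 0.259 and 0.0665 CPM. All of these were low, and Crabp2 did not differ between Control and HFpEF-scr by the call rule.

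**Figure D5:**
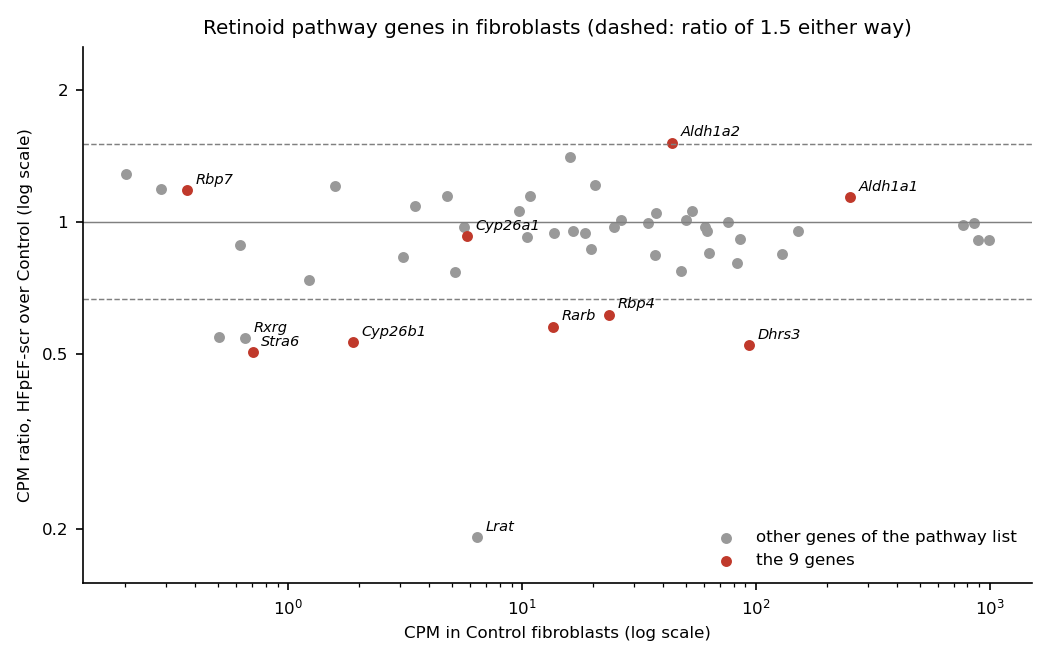
CPM in Control fibroblasts (x, log axis) against the CPM ratio of HFpEF-scr over Control (y, log axis) for the measured genes of the retinoid list, with the 9 genes in red. Lrat, at 6.43 CPM and a ratio of 0.191, lies lowest, and Aldh1a2 (1.51) is the only gene past 1.5-fold upward.

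In endothelial cells 36 of the other genes were measured, and 0 were called higher in HFpEF-scr than in Control, beside 1.79% of all genes. The 15 measured retinoic acid targets, Cyp26b1, Dhrs3 and Rarb among them, had a median log2 ratio of -0.28, beside -0.01 over all genes. Cyp26b1 was chosen on this comparison, and the whole list without the 9 genes had a median of -0.06. Between the HFpEF libraries 3 of the 36 were higher in HFpEF-FoxO1-sh and 0 lower: the synthesis enzyme Aldh1a3 (3.04, 1.63 and 11.5 CPM) and the retinol dehydrogenases Rdh10 (8.52, 8.73 and 14.4 CPM) and Rdh5 (10.6, 10.4 and 16.8 CPM). Over all genes 4.11% were called higher in that comparison. Markers of other cells were called higher there too, 12 of 13 measured macrophage and 9 of 12 pericyte markers, and mesothelial markers with UMIs went from 4 to 10 of 10. Their part in the result was not tested.

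In endocardial cells 33 of the other genes were measured, 1 called higher and 4 lower in HFpEF-scr than in Control, beside 2.78% and 2.22% of all genes. The 14 measured known targets, Cyp26b1, Dhrs3, Rarb and Stra6 among them, had a median log2 ratio of -0.38 beside 0.00 over all genes. The whole list without the 9 genes had a median of -0.14. Lower were Adh1, an alcohol dehydrogenase that oxidises retinol, at 139, 88.2 and 131 CPM, and Cd38, an NAD-degrading surface enzyme, at 103, 52.8 and 63.6 CPM. Tgm2, a transglutaminase, at 213, 137 and 161 CPM, and the lipoprotein receptor Lrp1, at 28.0, 16.7 and 28.2 CPM, completed the 4. Aldh1a3 was higher, at 9.26, 18 and 12.5 CPM. Between the HFpEF libraries 2 of the 33 were higher and 0 lower, beside 3.4% and 1.69% of all genes. Markers of other cells moved in this class too: summed erythroid markers were at 5141, 9978 and 4136 CPM, with 4 of 7 measured higher in HFpEF-scr than in Control and 4 of 7 lower in HFpEF-FoxO1-sh than in HFpEF-scr. Of the smooth muscle markers 4 of 8, and of the lymphatic markers 3 of 6, were lower in HFpEF-scr than in Control, and the part of any of these in the result was not tested.

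Macrophages, rich in Dhrs3, had other genes of the list called. Of 37 genes of the whole list measured there, 2 were called higher and 2 lower in HFpEF-scr than in Control, and 0 higher and 3 lower between the HFpEF libraries. Over all genes, 2.06% were called higher and 1.96% lower against Control, and 1.73% and 2.01% between the HFpEF libraries. Fabp5, a fatty acid-binding protein that also carries retinoic acid, stood at 101, 221 and 79.3 CPM, highest in HFpEF-scr. The retinoic acid receptor Rarg was at 18.5, 12.3 and 13.2 CPM and Nr2f2, a nuclear receptor, at 5.24, 2.83 and 2.13 CPM, both highest in Control. Marker genes moved in this class as well: 4 of 11 measured monocyte markers were called higher in HFpEF-scr than in Control and 6 of 12 lower in HFpEF-FoxO1-sh than in HFpEF-scr. Summed erythroid markers were at 196, 989 and 561 CPM, and 9 of 12 pericyte markers were lower in HFpEF-scr than in Control, and their part in these values was not tested. In smooth muscle 2 of 43 genes of the whole list were higher and 3 lower in HFpEF-scr than in Control, beside 2.39% and 2.64% of all genes. Without the 9 genes, which were chosen on this comparison, 1 of 36 was higher and 1 lower. Fabp5 there went the other way in HFpEF-scr, at 115, 68.5 and 106 CPM. Summed erythroid markers in smooth muscle were at 9479, 16479 and 4937 CPM, and their part in its values was not tested.

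The genes whose levels followed each of the 9 most closely were found by the Pearson correlation of log2(CPM + 1) over 14 classes in 3 libraries, 42 points that share libraries and depth. For Rbp7 they were Btnl9 (r = 0.95), Robo4 (0.927) and Gpihbp1 (0.921), of which Btnl9 and Gpihbp1 were used to name endothelial cells. For Cyp26b1 they were Samd12 (0.930), Gpr4 (0.883) and Rin1 (0.883), and for Stra6 Wnt9b (0.917), Fgf14 (0.894) and H19 (0.889). Aldh1a1 was followed by Gpm6b (0.975), Abca8b (0.961) and Sfrp1 (0.961), and Aldh1a2 by Cpxm1 (0.922), Scara5 (0.906) and Srpx2 (0.904). Rbp4 was followed by Gng8 (0.909), Omd (0.878) and Slc4a3 (0.875). The looser patterns were those of Rarb, with Clstn1 (0.887), Rock2 (0.882) and Pcdhb14 (0.880), Dhrs3, with Rab11fip5 (0.856), Cenpb (0.848) and Cyfip1 (0.847), and Cyp26a1, with Rxfp3 (0.763), Fmod (0.762) and Cilp2 (0.747).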

How the data were processed

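UMIs per gene and cell barcode in 3 left-ventricular libraries were deposited by the authors as raw counts with no cell annotation, made with Cell Ranger 6.1.2 on mm10 per the submitters' processing notes. The annotation release and the use of strand in counting are not given in the sources used here.

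Cells needed at least 500 UMIs and 300 genes and no more than 20% mitochondrial UMIs, and doublets marked by Scrublet per library (expected rate 12%, seed 0; 1.41%, 2.29% and 3.09% marked) were left out. Each cell was scaled to 10000 counts before the log. The 2000 most variable genes, without the 68 genes of the retinoid list, gave 30 principal components, and cells were joined to 15 neighbours and clustered by the Leiden method (resolution 1.0) in scanpy 1.11.5 with igraph 0.11.9, without batch correction. Clusters were named by the marker list best represented in the 50 genes of highest fold, at least 3 of them found in 10% of cells. For the rest, which include 10 of the 11 fibroblast clusters, folds were taken against named non-fibroblast cells only, a step added after the clusters were seen. Of 242 markers 236 were counted.

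UMIs were summed per class and library, in classes with at least 50 cells in every library, and CPM, exact intervals (scipy 1.17.1) and ratios were computed from the sums. Intervals and limits (3 counts for a count of 0) cover counting error only. All 9 genes are named wherever measured; other genes of the list are named where called, up to 6 per class and comparison by the size of the log2 ratio, with the 3 genes most like each member. Genes that lead clusters and markers were named after their values were seen. The result of 1 gene of the list is not reported here. The 9 genes, the lists and the alternatives were chosen with earlier results of these data known. The sums and calls were tested on simulated counts. Gene positions are from GENCODE M21, and promoter windows from RefSeq. Alternatives were other mitochondrial limits, depth minimums, resolutions, call rules, doublets kept, each cell classed singly and cells thinned to 1000 UMIs. The analysis used matplotlib 3.10.9, anndata 0.12.19, scikit-learn 1.9.0, pandas 2.3.3, numpy 2.4.6 and Python 3.11.15.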

Additional observations from a re-analysis of the deposited data

Results flagged for a closer look

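Aldh1a2 moved one way in endothelial cells and the other way in 3 other classes between the HFpEF libraries. Its ratio of HFpEF-FoxO1-sh to HFpEF-scr was 1.61 in endothelial cells, 0.168 in B cells, 0.0246 in natural killer cells and 0.167 in pericytes. With 1 library per group the difference between classes was not tested. The natural killer value rests on 40 UMIs in 6 cells of HFpEF-scr. Dcn, a fibroblast marker, went from 6807 to 1139.7 CPM in the B cell class, from 2317 to 661 CPM in natural killer cells and from 5113 to 2807 CPM in pericytes, and its part in the Aldh1a2 values was not tested. In HFpEF-FoxO1-sh 702 of the 743 cells of the B cell class came from a shallow cluster.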

How the results depend on the processing

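Over 96 alternatives to the main results 84 stayed within the counting interval of the main value, or within 1.5 times a count, and 12 moved. With at most 10% mitochondrial UMIs, Dhrs3 in fibroblasts had ratios of 0.582 to Control and 1.27 between the HFpEF libraries, and Cyp26b1 in endothelial cells 0.366 to Control. With fibroblast clusters weighted as in Control, chosen after seeing the data, Dhrs3 was at 0.569, and with the largest endothelial cluster alone, also chosen then, Cyp26b1 was at 0.195. Over all alternatives Dhrs3 in fibroblasts ran from 0.506 to 0.582 and Cyp26b1 in endothelial cells from 0.125 to 0.366. Of the retinoid list, 8 genes were called in fibroblasts between HFpEF-scr and Control, and 1 at a ratio of at least 2; 4 were called in endothelial cells, 13 with at most 10% mitochondrial UMIs and 1 at a ratio of 2. Between the HFpEF libraries 6 were called in fibroblasts, 2 with each cell classed singly and 2 with at least 100 UMIs; 4 were called in endothelial cells, 11 with at most 10% mitochondrial UMIs and 1 at a ratio of 2. The cause was not tested.

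Of 600 alternatives to single genes 486 stayed, 111 moved and 3 reversed. These 3 belong to results called in the main setting. Endothelial Aldh1a2 between the HFpEF libraries was 0.370 and 0.531 with at most 10% and 50% mitochondrial UMIs, and smooth muscle Rarb 1.05 with at most 10%. Ratios that were not called crossed 1 as well and are not among the 3. Between the HFpEF libraries, smooth muscle Aldh1a1 did so in 5 of 10 alternatives and fibroblast Cyp26a1 in 4 of 11. At 10% no cluster was named endocardial, so there is no endocardial value, and Scrublet marked 0.154% and 0.0581% of barcodes in Control and HFpEF-scr, so it had not worked there. No paired analysis was possible because each group has 1 library. Depth limits the rare genes: Stra6, with 378 UMIs, and Cyp26a1 outside fibroblasts rest on few cells.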

Other observations

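Smooth muscle and macrophages held further differences in genes of the retinoid list that the 9 genes do not cover. In smooth muscle the retinoic acid receptor Rara stood at 13, 21.0 and 13 CPM (libraries in the same order as above), and Rdh10, which oxidises retinol, at 6.96, 11.4 and 5.64 CPM, both highest in HFpEF-scr. Ces1d, a carboxylesterase, was at 9.36, 7.67 and 2.26 CPM there. Markers of other cells moved in the smooth muscle class as well. Summed erythroid markers were at 9479, 16479 and 4937 CPM and summed neutrophil markers at 73.9, 292 and 61.5 CPM. Of 11 measured macrophage markers 9 were called lower in HFpEF-FoxO1-sh than in HFpEF-scr. Their part in these smooth muscle values was not tested. In macrophages Tgm2 was at 8.68, 9.31 and 4.71 CPM. Dhrs9 in macrophages was at 2.53 CPM in HFpEF-scr and 0.304 CPM in HFpEF-FoxO1-sh, with 0 UMIs in Control. These are values of 1 library per group, with no test.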
